A study of Arabidopsis thaliana with 18 samples.

Results

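The tricarboxylic acid (TCA) cycle and mitochondrial pyruvate dehydrogenase genes of Arabidopsis thaliana were followed in leaf mesophyll protoplasts, which are single leaf cells freed of their walls. Members were chosen by locus and enzyme name. The rule used no measured values, but earlier results of these data were known when it was set. The members are 31 genes for pyruvate dehydrogenase (PDH), citrate synthase, aconitase, isocitrate dehydrogenase, 2-oxoglutarate dehydrogenase (OGDH), succinyl-CoA ligase (SCL), fumarase and malate dehydrogenase (MDH). Each was read as its lowest-numbered splice variant. Of these, 30 were among the 24532 genes of the count tables and 28 passed the filter on low counts. CSY5 (AT3G60100, a citrate synthase) was not analysed here, and IDH3 (AT4G35650) and IDH4 (AT1G32480), named as isocitrate dehydrogenase subunits, had at most 1 read in any library and were not tested.

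The study followed the start of cell division in protoplasts of the wild type (WT) and of the nph4-1 arf19-1 double mutant, which carries loss-of-function alleles of the auxin response factor genes ARF7 (NPH4) and ARF19. Protoplasts came from plants 23 days after sowing and were either pelleted fresh (Day 0) or embedded in alginate gels and cultured in the dark for 4 or 6 days with 2% glucose, 0.4 M mannitol, the auxin 2,4-D at 1 mg per L and the cytokinin thidiazuron at 176 ug per L. Each of the 6 groups of genotype and day had 3 libraries, 18 in all. Cultured protoplasts were also released from their gels by a citrate soak, so culture and release cannot be told apart in any comparison with Day 0. Yucasin, an inhibitor of auxin synthesis, is given in the labels of the mutant libraries of Day 6 although the study describes none there, so genotype and yucasin cannot be told apart at Day 6. Only a small share of such protoplasts divides, so each library is a mixture of dividing and other cells, and in such bulk RNA fewer cells of a type and less RNA per cell cannot be told apart.

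In the mitochondrion, the PDH complex turns pyruvate into acetyl-CoA through its E1 (alpha and beta), E2 and E3 subunits, and citrate synthase joins acetyl-CoA to oxaloacetate. Aconitase, NAD-isocitrate dehydrogenase (IDH), the OGDH complex, SCL, succinate dehydrogenase, fumarase and MDH then return the carbon to oxaloacetate. In leaves in the light the cycle is known to run only in part and to export citrate and 2-oxoglutarate for nitrogen assimilation, and cytosolic isoforms of aconitase, fumarase and MDH work beside the mitochondrial ones. Most steps in Arabidopsis are encoded by small gene families, so the isoform used can change while the step remains.

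The libraries held 3438524 to 12119944 mapped reads (median 6291177), and values are given as CPM (counts scaled to the size of the library and per 1e6 reads) after TMM scaling, a normalization that centres the log ratios between libraries. At these depths 3 reads equal 0.282 to 0.786 CPM, a floor that covers counting error only. Levels are given ± SD (n = 3) and log2 fold changes of the edgeR model ± SE. The labels were checked first on the mutated genes: at Day 6 ARF19 stood at 73.2 ± 7.15 CPM in WT against 8.82 ± 1.56 in mutant libraries, and at Day 0 ARF7 at 159 ± 6.61 against 44.04 ± 6.41 (SD, n = 3 each). ARF7 was also lower in the mutant at Days 4 and 6 (30.1 ± 1.42 against 13.6 ± 0.362 CPM at Day 6). ARF19 at Day 0 stood at 9.0 ± 2.12 CPM in WT and 11.3 ± 1.55 in mutant libraries (0.32 ± 0.20 on the log2 scale, not called), so it does not separate the fresh libraries. The summed level of 6 mesophyll markers ran from 1472 to 5340 CPM at Day 0 and from 310.3 to 978 CPM in culture, with none of the 6 at 0 in any group. The 3 guard cell markers summed to at most 1.68 CPM and the 3 epidermis markers to at most 1.16 CPM at Day 0, with 1 or 2 of the 3 guard cell markers and up to 1 of the 3 epidermis markers at 0 in all libraries of a Day 0 group. The 3 vascular markers summed to 7.12 to 10.4 CPM in fresh WT libraries and 5.66 to 7.65 CPM in fresh mutant ones. In culture the guard cell sum reached 12.6, the epidermis sum 6.6 and the vascular sum 30.8 CPM. The part of these markers in the changes with culture was not tested.

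Sequences upstream of member genes were read from the RefSeq genome of build TAIR10.1 as the 250 bases before each annotated gene start. They were searched on both strands for TGGGCC and TGGGCT, the letters of the site II element known from nuclear genes for mitochondrial and ribosomal proteins, and for TGTCTC and TGTCGG, the core letters of binding sites of auxin response factors. The matches found in member windows did not overlap each other. The windows of the OGDH E1 and SCL alpha pairs are shown because these pairs had the largest shifts between their genes in culture, and that of mMDH1 because this gene had the largest rise. Capitals mark the motif matches. The first lies at chr5:26303423-26303672, the second at chr3:20541019-20541268, the third at chr5:7830068-7830317 and the fourth at chr5:2667111-2667360, all on the plus strand, and the fifth at chr1:19857147-19857396 on the minus strand. Each window ends where its gene begins: the genes lie at chr5:26303673-26308237, chr3:20541269-20546053, chr5:7830318-7832843, chr5:2667361-2669923 and chr1:19854615-19857146.
OGDH-E1b: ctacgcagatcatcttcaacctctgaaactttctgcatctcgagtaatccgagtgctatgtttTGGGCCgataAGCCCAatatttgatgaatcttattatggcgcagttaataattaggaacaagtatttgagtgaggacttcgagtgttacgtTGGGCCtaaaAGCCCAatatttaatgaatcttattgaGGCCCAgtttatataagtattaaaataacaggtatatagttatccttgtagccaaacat
OGDH-E1a: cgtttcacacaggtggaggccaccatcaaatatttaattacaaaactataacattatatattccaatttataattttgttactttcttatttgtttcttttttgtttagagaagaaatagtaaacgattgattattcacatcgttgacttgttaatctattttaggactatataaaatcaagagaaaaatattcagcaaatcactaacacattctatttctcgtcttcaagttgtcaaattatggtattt
SCLa2: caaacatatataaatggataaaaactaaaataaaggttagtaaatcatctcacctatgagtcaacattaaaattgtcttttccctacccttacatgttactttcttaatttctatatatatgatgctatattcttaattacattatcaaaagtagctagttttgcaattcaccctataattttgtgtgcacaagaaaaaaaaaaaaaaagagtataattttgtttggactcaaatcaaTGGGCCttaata
SCLa1: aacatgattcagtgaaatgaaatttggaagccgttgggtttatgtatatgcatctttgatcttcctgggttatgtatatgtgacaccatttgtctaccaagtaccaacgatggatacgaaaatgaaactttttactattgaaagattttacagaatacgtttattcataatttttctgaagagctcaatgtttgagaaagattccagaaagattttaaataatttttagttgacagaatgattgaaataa
mMDH1: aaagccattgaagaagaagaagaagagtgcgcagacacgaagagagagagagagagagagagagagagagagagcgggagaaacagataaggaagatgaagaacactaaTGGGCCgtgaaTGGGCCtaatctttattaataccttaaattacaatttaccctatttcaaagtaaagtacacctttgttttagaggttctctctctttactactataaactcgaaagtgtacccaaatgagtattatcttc
OGDH-E1b, SCLa2 and mMDH1, whose transcripts rose in culture, each held a site II match, and OGDH-E1a and SCLa1, whose transcripts fell, held none. Over all 31 member windows 10 held a site II match, against 19.2% of 27443 windows of protein-coding genes. By the changes described next, 7 of the 11 members higher at Day 6 in both genotypes held one (OGDH-E1b, SCLa2, mMDH1, mMDH2, cMDH1, cMDH2 and PDH-E2a). Of the 9 members lower in both, 2 did (IDH5 and OGDH-E2a). mMDH2 begins inside AT3G15010, a gene on the same strand that overlaps it by 277 bases, so its window reaches into that gene. TGTCTC occurred in the windows of IDH4 and PDH-E2a and TGTCGG in none, against 10.9% and 4.16% of all windows. These are matches of letters and were not tested as sites.

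Per kilobase of transcript, which allows genes to be compared, the highest WT members at Day 0 were ACO1 at 395 ± 29.4, OGDH-E1a at 322 ± 19.8 and IDH5 at 239 ± 15.8 CPM per kb (SD, n = 3). IDH5 and the next member, CSY4 at 238 ± 16.1, do not differ beyond their spread. At Day 6 the order had changed to cMDH1 (511 ± 26.0), cICDH (260.3 ± 1.93) and ACO3 (173 ± 16.4), and the lowest tested member was FUM2 at 1.64 ± 0.232 CPM per kb. The summed level of mitochondrial MDH moved from 13.1 ± 1.48 to 137 ± 5.66 CPM per kb in the WT.

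**Figure D1:**
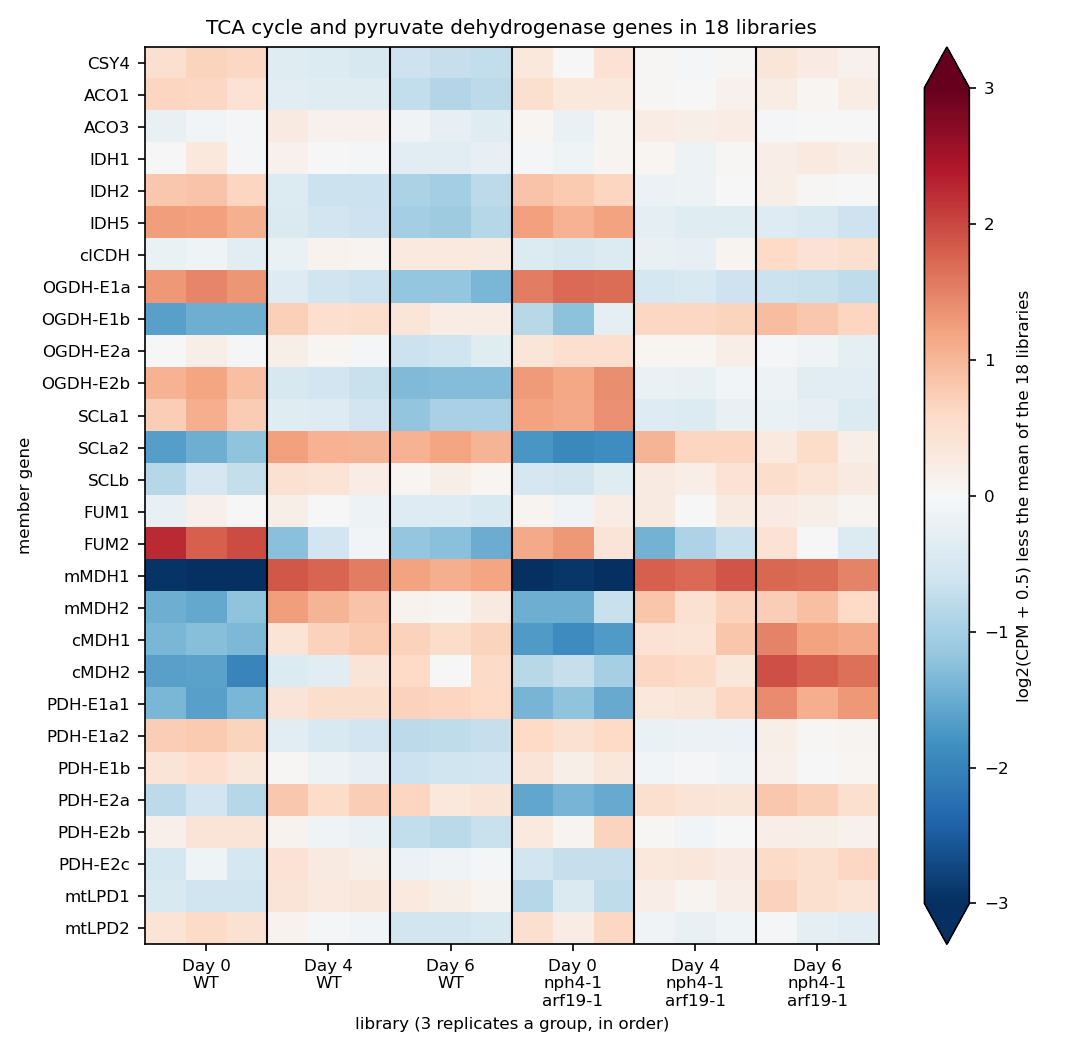
Level of the 28 tested members in the 18 libraries as a heat map, with log2(CPM + 0.5) less the gene's mean over all libraries as colour, genes in the order of the pathway as rows and libraries in groups of 3 as columns. The colours stop at 3 on either side, which mMDH1 passes at Day 0. A reader should see Day 0 stand apart from culture in both genotypes and, at Day 6, paler blue or deeper red in nph4-1 arf19-1 than in the WT for most rows.

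Culture moved most members, in both directions. In the WT 11 members were higher and 11 lower at Day 4 than at Day 0, and 11 were higher and 15 lower at Day 6, of 28 tested with edgeR at FDR < 0.01. Over all 25202 variants tested, 42.6% were called higher and 37% lower at Day 4, and 43.9% and 37.7% at Day 6. In nph4-1 arf19-1 the members split into 11 higher and 12 lower at Day 4 (all variants, 39% and 36.1%) and into 12 higher and 9 lower at Day 6 (all variants, 40.2% and 35.9%). With the limits of the study (a log2 fold change beyond 2 in either direction and FDR < 0.01), 4 members were higher and 4 lower in the WT at Day 6, against 42.5% of all variants in either direction. Most of the members' shares lie near the background and are no result about the members, so the following describes which genes moved.

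The scaling bears on these directions. When the authors' library totals were used without TMM, the median log2 fold change of all variants moved from 0.23 to 1.26 in the WT at Day 4, from 0.23 to 1.40 at Day 6, from 0.18 to 1.19 in nph4-1 arf19-1 at Day 4 and from 0.205 to 1.10 at Day 6. The members then divided into 16 higher and 7 lower in the WT at Day 6. Relative to the median of all variants, 12 of the 28 members were above it in the WT at Day 6 under each of the 3 scalings tried. Members whose called direction turned are named with their values below. The ratio of 2 genes within a library does not depend on the scaling, and 8 pairs of genes for the same enzyme were compared in this way, with exact 2-sided permutation tests over libraries within strata (400 relabellings, smallest p 0.005) adjusted over 16 tests.

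**Figure D2:**
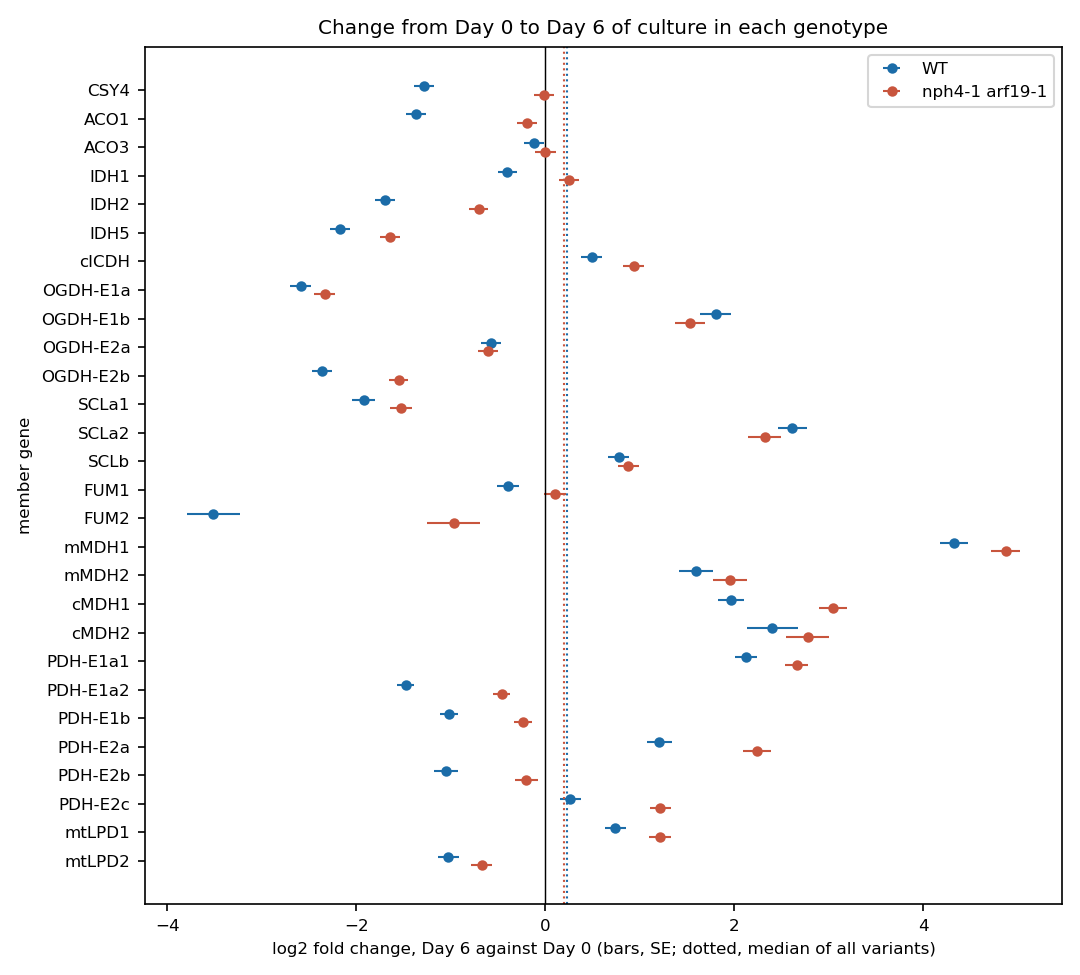
Log2 fold change from Day 0 to Day 6 for each tested member, with WT in blue and nph4-1 arf19-1 in red, bars for the SE and dotted lines for the median of all variants in each genotype. mMDH1 lies farthest right in both genotypes (4.33 and 4.88), FUM2 farthest left in the WT (-3.51) and OGDH-E1a in the mutant (-2.33), and for most members the red point lies to the right of the blue one.

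PDH-E1a1 (AT1G59900) and PDH-E1a2 (AT1G24180, IAR4, a gene known from auxin conjugate sensitivity) encode the E1 alpha subunit that binds pyruvate with E1 beta. PDH-E1a1 stood at 25.8, 21.5 and 26.01 CPM in the WT libraries at Day 0, at 87.95, 97.05 and 98.1 at Day 4 and at 110.1, 105 and 103 at Day 6. In nph4-1 arf19-1 PDH-E1a1 stood at 25.2, 28.8 and 23.5 CPM, then at 83.9, 87.1 and 104 and then at 182, 145 and 167. Fresh cells of both genotypes were low and all cultured libraries were above them, with a log2 fold change at Day 6 of 2.13 ± 0.12 in the WT and 2.66 ± 0.12 in the mutant. PDH-E1a2 stood at 245, 254 and 233 CPM in the WT libraries at Day 0, at 118, 107 and 97.8 at Day 4 and at 85.6, 86.8 and 90.7 at Day 6. In nph4-1 arf19-1 PDH-E1a2 stood at 223, 202 and 222 CPM, then at 127, 129 and 129.7 and then at 166, 149.8 and 155. This gene went the other way, with log2 fold changes of -1.48 ± 0.09 in the WT (FDR 6.38e-12) and -0.46 ± 0.09 in the mutant, the second of which turned to 0.44 with library totals alone. The share of PDH-E1a1 in E1 alpha transcript per kb therefore went from 9.27 ± 1.20% in the WT at Day 0 to 47.2 ± 3.73% at Day 4 and 55.2 ± 1.52% at Day 6, and in nph4-1 arf19-1 from 10.9 ± 1.54% to 42.0 ± 2.62% and 51.6 ± 1.62%. The log2 ratio of PDH-E1a1 to PDH-E1a2 rose by 3.36 from Day 0 to Day 6 on average of both genotypes (exact permutation test, adjusted p = 0.01). Between the genotypes it was lower in nph4-1 arf19-1 by 0.26 over Days 4 and 6 (mean difference -0.26, exact permutation test, adjusted p = 0.029), a difference that lost its call when any of 6 libraries was left out (adjusted p up to 0.058).

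The other PDH subunits divided as well. PDH-E1b (AT5G50850, MAB1), the E1 beta subunit that is known from patterning defects of its mutant, went from 266 ± 15.2 to 132 ± 2.68 CPM in the WT at Day 6, a log2 fold change of -1.02 ± 0.10 that turned to 0.15 with library totals alone, and in nph4-1 arf19-1 from 248 ± 18.7 to 211 ± 11.4, which was not called. Of the E2 genes, which carry the lipoyl arm and transfer the acetyl group, PDH-E2a (AT1G54220) rose from 11.3 ± 1.26 to 26.4 ± 3.19 CPM in the WT and from 6.49 ± 0.44 to 30.7 ± 3.6 in the mutant. PDH-E2b (AT3G13930) stood at 211 ± 19.6 and 102 ± 4.92 CPM in the WT, a log2 fold change of -1.04 ± 0.13 that turned to 0.12 with library totals alone, and at 219.8 ± 45.7 and 191 ± 4.8 in the mutant, where it was not called. PDH-E2c (AT3G52200, LTA3) was called at Day 6 in the mutant alone, at 1.22 ± 0.11 against 0.27 ± 0.11 in the WT, and the difference between these changes was 0.95 ± 0.15 (FDR 6.81e-05). By transcript per kb PDH-E2b held 77.3 ± 2.33% of E2 in the WT at Day 0 and 53.8 ± 0.70% at Day 6, and it remained the main E2 gene in every group.

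The E3 subunit, dihydrolipoyl dehydrogenase, is shared by the PDH and OGDH complexes and in leaves by glycine decarboxylase of photorespiration, and has 2 mitochondrial genes. mtLPD1 stood at 63.9, 58.1 and 57.5 CPM in the WT libraries at Day 0, at 116, 108 and 112 at Day 4 and at 108, 99.9 and 92.5 at Day 6. In nph4-1 arf19-1 mtLPD1 stood at 48.6, 65.1 and 51.8 CPM, then at 102, 93.1 and 101 and then at 143, 124 and 118. mtLPD1 (AT1G48030) was thus higher in every cultured library than in any fresh one. mtLPD2 stood at 291, 328 and 299 CPM in the WT libraries at Day 0, at 237, 210.4 and 206 at Day 4 and at 148, 148 and 155 at Day 6. In nph4-1 arf19-1 mtLPD2 stood at 307, 254 and 334 CPM, then at 204, 189 and 199 and then at 209, 179 and 174. mtLPD2 (AT3G17240) was lower at Day 6 than in any fresh library of the same genotype, at -1.02 ± 0.11 in the WT and -0.67 ± 0.11 in the mutant, values that turned to 0.15 and 0.24 with library totals alone. The share of mtLPD1 in the pair went from 15.7 ± 1.42% to 38.8 ± 2.45% per kb in the WT and from 15.2 ± 3.83% to 39.4 ± 0.20% in nph4-1 arf19-1. Its log2 ratio to mtLPD2 rose by 1.83 from Day 0 to Day 6 (exact permutation test, adjusted p = 0.01), by 1.76 in the WT and 1.89 in the mutant. The 2 genotypes did not differ detectably over Days 4 and 6 (exact permutation test, adjusted p = 0.985).

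Citrate synthase CSY4 (AT2G44350) held 432 ± 29.3 CPM in fresh WT cells, 214 ± 9.49 at Day 4 and 178 ± 6.47 at Day 6, and in nph4-1 arf19-1 342 ± 48.7, 287 ± 9.22 and 339 ± 26.7. The fall was called in the WT at Day 4, where it turned to 0.01 with library totals alone, and at Day 6 (-1.28 ± 0.11), and in the mutant it was not called on either day. ACO1 (AT4G35830), an aconitase that turns citrate into isocitrate, stood at 1321 ± 98.4, 700.1 ± 7.36 and 513 ± 26.1 CPM in the WT and, in the mutant, at 1149 ± 76.0, 925 ± 45.9 and 1005 ± 64.1. It was called lower in the WT at Day 6 (-1.36 ± 0.11) and not in the mutant, and lower at Day 4 in both genotypes, where the values turned to 0.11 and 0.70 with library totals alone. The mutant's call at Day 4 (-0.31) was lost when any of its Day 0 libraries or Day 4 replicate 1 or 2 was left out, 5 of 6 fits (edgeR, FDR up to 0.089). ACO3 (AT2G05710) was not called at Day 6 in either genotype, at 670.3 ± 40.2 and 618 ± 58.4 CPM in the WT and, in the mutant, at 717 ± 76.2 and 719 ± 6.09.

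The NAD-dependent isocitrate dehydrogenase is built from catalytic and regulatory subunits, of which IDH5 is catalytic and IDH1 and IDH2 regulatory. IDH5 (AT5G03290) fell from 352 ± 23.2 to 77.9 ± 6.32 CPM in the WT and from 345 ± 22.9 to 110.3 ± 9.48 in the mutant. IDH2 (AT2G17130) fell from 101 ± 8.17 to 31.0 ± 2.53 in the WT and was called lower from 99.98 ± 7.55 to 61.4 ± 4.21 in the mutant, where the change of -0.70 ± 0.10 turned to 0.19 with library totals alone and that at Day 4 to 0.13. IDH1 (AT4G35260) was called lower in the WT at Day 6, from 108 ± 14.7 to 82.4 ± 3.05 CPM (-0.40 ± 0.10, turning to 0.77 with library totals alone and to -0.26 without a call when Day 0 WT replicate 2 was left out), and not in the mutant, at 99.6 ± 7.52 and 119 ± 4.09. By transcript per kb, IDH1 went from 18.2 ± 1.5% to 41.3 ± 1.09% of the sum of IDH1 to IDH5, which leaves out IDH-VI (described with the other dehydrogenase genes), in the WT and from 17.2 ± 1.03% to 39.2 ± 1.98% in nph4-1 arf19-1. The cytosolic NADP-dependent enzyme cICDH (AT1G65930), a source of NADPH and 2-oxoglutarate outside mitochondria, rose in both genotypes, from 423 ± 25.7 to 595 ± 4.4 CPM in the WT and from 362 ± 8.51 to 694 ± 43.1 in the mutant.

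OGDH-E1a (AT3G55410) and OGDH-E1b (AT5G65750) encode the E1 subunit that decarboxylates 2-oxoglutarate. OGDH-E1a stood at 1128, 1267 and 1159 CPM in the WT libraries at Day 0, at 354, 305 and 293 at Day 4 and at 207, 206 and 178 at Day 6. In nph4-1 arf19-1 OGDH-E1a stood at 1332, 1490.4 and 1485 CPM, then at 322, 336 and 302 and then at 297, 288 and 270.2. OGDH-E1a was high in all 6 fresh libraries and fell in both genotypes, with log2 fold changes of -2.59 ± 0.11 in the WT and -2.33 ± 0.11 in the mutant. OGDH-E1b stood at 24.6, 27.8 and 27.4 CPM in the WT libraries at Day 0, at 127, 110.1 and 112 at Day 4 and at 99.3, 90.4 and 90.2 at Day 6. In nph4-1 arf19-1 OGDH-E1b stood at 43.3, 32.8 and 64.4 CPM, then at 119, 118 and 123 and then at 147, 135 and 121. OGDH-E1b was lowest in fresh WT cells and rose by 1.81 ± 0.16 in the WT and 1.53 ± 0.16 in the mutant. OGDH-E1b counted 44.4 times fewer reads than OGDH-E1a in fresh WT cells and 2.11 times fewer at Day 6, and the figures in the mutant were 31.8 and 2.13 times. From Day 0 to Day 6 the log2 ratio of OGDH-E1b to OGDH-E1a rose by 4.15 (exact permutation test, adjusted p = 0.01), and between the genotypes over Days 4 and 6 its mean difference was 0.01 (adjusted p = 0.928 by exact permutation).

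The E2 pair of the same complex, OGDH-E2a (AT5G55070) and OGDH-E2b (AT4G26910), carries the lipoyl arm that takes up the succinyl group. OGDH-E2a stood at 197, 222 and 190.4 CPM in the WT libraries at Day 0, at 224, 206 and 190.1 at Day 4 and at 126, 130.4 and 153 at Day 6. In nph4-1 arf19-1 OGDH-E2a stood at 254, 277 and 280.03 CPM, then at 204, 205 and 226 and then at 188, 184 and 161. OGDH-E2a was called lower at Day 6 in both genotypes (-0.58 ± 0.11 and -0.61 ± 0.11), and these values turned to 0.59 and 0.30 with library totals alone. OGDH-E2b stood at 329.8, 365 and 302 CPM in the WT libraries at Day 0, at 114, 107 and 101 at Day 4 and at 64.04, 65.1 and 64.3 at Day 6. In nph4-1 arf19-1 OGDH-E2b stood at 387, 359.6 and 419 CPM, then at 138, 138 and 151 and then at 144, 126 and 127. OGDH-E2b had more reads than OGDH-E2a in every fresh library and fewer in every cultured one, so the order of the pair changed. The log2 ratio of OGDH-E2b to OGDH-E2a stood at 0.71 ± 0.04 in the WT at Day 0, -0.94 ± 0.03 at Day 4 and -1.07 ± 0.15 at Day 6 (SD, n = 3). In nph4-1 arf19-1 the ratio was 0.52 ± 0.13, -0.57 ± 0.01 and -0.42 ± 0.11. The change from Day 0 to Day 6 averaged -1.36, and the mutant was higher by 0.37 at Day 4 and 0.66 at Day 6, a mean of 0.51 (exact permutation tests, adjusted p = 0.01 for both).

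Succinyl-CoA ligase makes ATP or GTP from succinyl-CoA and has 2 genes for its alpha subunit and 1 for its beta subunit. SCLa1 stood at 296, 379.9 and 304 CPM in the WT libraries at Day 0, at 139, 136 and 120.1 at Day 4 and at 77.8, 91.03 and 90.1 at Day 6. In nph4-1 arf19-1 SCLa1 stood at 414, 390.02 and 463 CPM, then at 136, 133 and 152 and then at 156, 149 and 135. SCLa1 (AT5G08300) was the main alpha gene in all groups and fell in culture, with log2 fold changes of -1.92 ± 0.12 in the WT and -1.53 ± 0.12 in the mutant. SCLa2 stood at 5.39, 6.17 and 7.52 CPM in the WT libraries at Day 0, at 43.3, 37.7 and 36.8 at Day 4 and at 37.8, 41.9 and 36.8 at Day 6. In nph4-1 arf19-1 SCLa2 stood at 5.04, 4.33 and 4.57 CPM, then at 37.3, 28.7 and 28.7 and then at 22.2, 26.6 and 20.4. SCLa2 (AT5G23250) rose 6.12-fold in the WT and 5.02-fold in the mutant by Day 6, and the genotypes did not overlap at Day 6, where all WT libraries were higher. Its share per kb went from 1.97 ± 0.44% to 31.5 ± 1.91% of alpha transcript in the WT and from 1.11 ± 0.12% to 13.9 ± 1.41% in the mutant. Within libraries the log2 ratio of SCLa2 to SCLa1 rose by 4.17 from Day 0 to Day 6 and over Days 4 and 6 was lower in the mutant by 0.97 (mean difference -0.97), by -0.42 at Day 4 and -1.52 at Day 6 (exact permutation tests, adjusted p = 0.01 for both). The mutant's ratio was also the lower at Day 0, at -6.48 ± 0.15 against -5.67 ± 0.31 (SD, n = 3 each), and the libraries did not overlap. SCLb (AT2G20420), the only beta gene, rose from 107 ± 13.9 to 184 ± 9.55 CPM in the WT and from 124 ± 8.94 to 228 ± 19.3 in the mutant.

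Fumarase turns fumarate into malate, in mitochondria by FUM1 (AT2G47510) and in the cytosol by FUM2 (AT5G50950), which is known for the fumarate store of leaves in the light. FUM1 stood at 132, 169 and 152 CPM in the WT libraries at Day 0, at 174, 156 and 138 at Day 4 and at 118, 117 and 111 at Day 6. In nph4-1 arf19-1 FUM1 stood at 163, 142 and 179 CPM, then at 185, 155 and 186 and then at 182, 173 and 164. FUM1 was called lower in the WT at Day 6 (-0.39 ± 0.12), a value that turned to 0.78 with library totals alone, and was not called in the mutant. That call was lost without each library but Day 0 WT replicate 1, 5 of 6 fits (edgeR, FDR up to 0.048, values over all 6 from -0.46 to -0.28). FUM2 stood at 37.5, 27.6 and 30.5 CPM in the WT libraries at Day 0, at 2.86, 4.87 and 7.11 at Day 4 and at 3.12, 2.89 and 2.35 at Day 6. In nph4-1 arf19-1 FUM2 stood at 17.2, 19.1 and 10.01 CPM, then at 2.49, 3.7 and 4.54 and then at 10.4, 7.65 and 5.5. FUM2 fell 11.4-fold in the WT and 1.96-fold in the mutant by Day 6, from counts of 150 to 210 reads in fresh WT cells to 25 to 27 at Day 6. The mutant's call (-0.97 ± 0.28) was lost in 4 of 6 fits, without Day 0 replicate 1 or 2 or Day 6 replicate 2 or 3 (edgeR, FDR up to 0.036, values over all 6 from -1.20 to -0.73), so its count among the members lower in both genotypes rests on single libraries. The mutant was lower than the WT at Day 0 (-1.02 ± 0.24, FDR 0.00618) and higher at Day 6 (1.52 ± 0.33, FDR 0.000501). The call at Day 0 was lost in 4 of 6 fits, without WT replicate 1 or 3 or mutant replicate 1 or 3 (FDR up to 0.032 with edgeR). The log2 ratio of FUM2 to FUM1 fell by 2.09 from Day 0 to Day 6 (mean difference -2.09, exact permutation test, adjusted p = 0.016), by -3.10 in the WT and -1.07 in the mutant. Between the genotypes it differed by -0.57 at Day 4 and 0.86 at Day 6, in opposite directions, and the mean over both days was not called (exact permutation test, adjusted p = 0.823). Of the 36-base stretches of the FUM2 transcript 2.76% are also in that of FUM1, and reads from these stretches cannot be told apart. FUM1 had 1020 to 1179 reads in the WT libraries at Day 6. The part of shared reads in the low FUM2 counts, and so in its changes and ratios, was not tested.

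Malate dehydrogenase returns malate to oxaloacetate, and its gene mMDH1 had the largest rise of the members in both genotypes. mMDH1 stood at 10.96, 8.53 and 10.4 CPM in the WT libraries at Day 0, at 321, 297 and 257 at Day 4 and at 204, 189 and 202 at Day 6. In nph4-1 arf19-1 mMDH1 stood at 9.72, 11.1 and 6.96 CPM, then at 305, 288 and 326 and then at 295, 282 and 250.3. mMDH1 (AT1G53240), a mitochondrial isoform, held at most 11.1 CPM in any fresh library and at least 189 in any cultured one, and was 20.1-fold higher at Day 6 in the WT (FDR 8.08e-16) and 29.4-fold in nph4-1 arf19-1 (FDR 5.98e-16). mMDH2 stood at 12.1, 11.4 and 14.6 CPM in the WT libraries at Day 0, at 81.7, 69.3 and 62.2 at Day 4 and at 36.6, 36.1 and 41.5 at Day 6. In nph4-1 arf19-1 mMDH2 stood at 12.1, 12.1 and 21.3 CPM, then at 61.3, 47.5 and 55.3 and then at 57.4, 64.6 and 52.1. mMDH2 (AT3G15020), the second mitochondrial gene, also rose, by 1.59 ± 0.18 and 1.96 ± 0.18 on the log2 scale. Its annotated start lies inside AT3G15010, and 14.3% of the 36-base stretches of its transcript are also in transcripts of that gene, and reads from these stretches cannot be told apart. The log2 ratio of mMDH1 to mMDH2 moved from -0.35 ± 0.18 to 2.38 ± 0.10 in the WT and from -0.68 ± 0.80 to 2.25 ± 0.12 in the mutant, a mean rise of 2.83 (exact permutation test, adjusted p = 0.01). The third fresh mutant library stood apart from the other 2 in that ratio, at -1.60.

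The cytosolic pair cMDH1 (AT1G04410) and cMDH2 (AT5G43330) serves the exchange of reducing power between compartments. cMDH1 stood at 206, 220.1 and 207 CPM in the WT libraries at Day 0, at 703, 853 and 913 at Day 4 and at 854, 776 and 843 at Day 6. In nph4-1 arf19-1 cMDH1 stood at 163, 143 and 163 CPM, then at 711, 709 and 948 and then at 1487, 1216 and 1172. cMDH1 rose 3.91-fold in the WT and 8.26-fold in the mutant by Day 6, and a change larger in the mutant was called (1.08 ± 0.19, FDR 0.000172). cMDH2 stood at 1.92, 1.97 and 1.42 CPM in the WT libraries at Day 0, at 5.15, 5.52 and 9.44 at Day 4 and at 10.8, 7.11 and 10.8 at Day 6. In nph4-1 arf19-1 cMDH2 stood at 3.74, 4.16 and 3.26 CPM, then at 11.05, 10.7 and 9.07 and then at 28.3, 25.6 and 23.3. cMDH2 stayed a minor gene of 7 to 15 reads per library in fresh WT cells and of 64 to 115 at Day 6, and rose by 2.41 ± 0.27 in the WT and 2.78 ± 0.23 in the mutant. At Day 6 all 3 mutant libraries were above all WT libraries for both genes. Of the 36-base stretches of the cMDH2 transcript 4.34% are shared with AT1G44750. Within the pair, the log2 ratio of cMDH2 to cMDH1 did not change detectably with culture (mean 0.06, exact permutation test, adjusted p = 0.823), and over Days 4 and 6 it was higher in the mutant by 0.77 (exact permutation test, adjusted p = 0.016). The mutant's ratio was also the higher at Day 0, at -5.36 ± 0.26 against -6.84 ± 0.22.

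**Figure D3:**
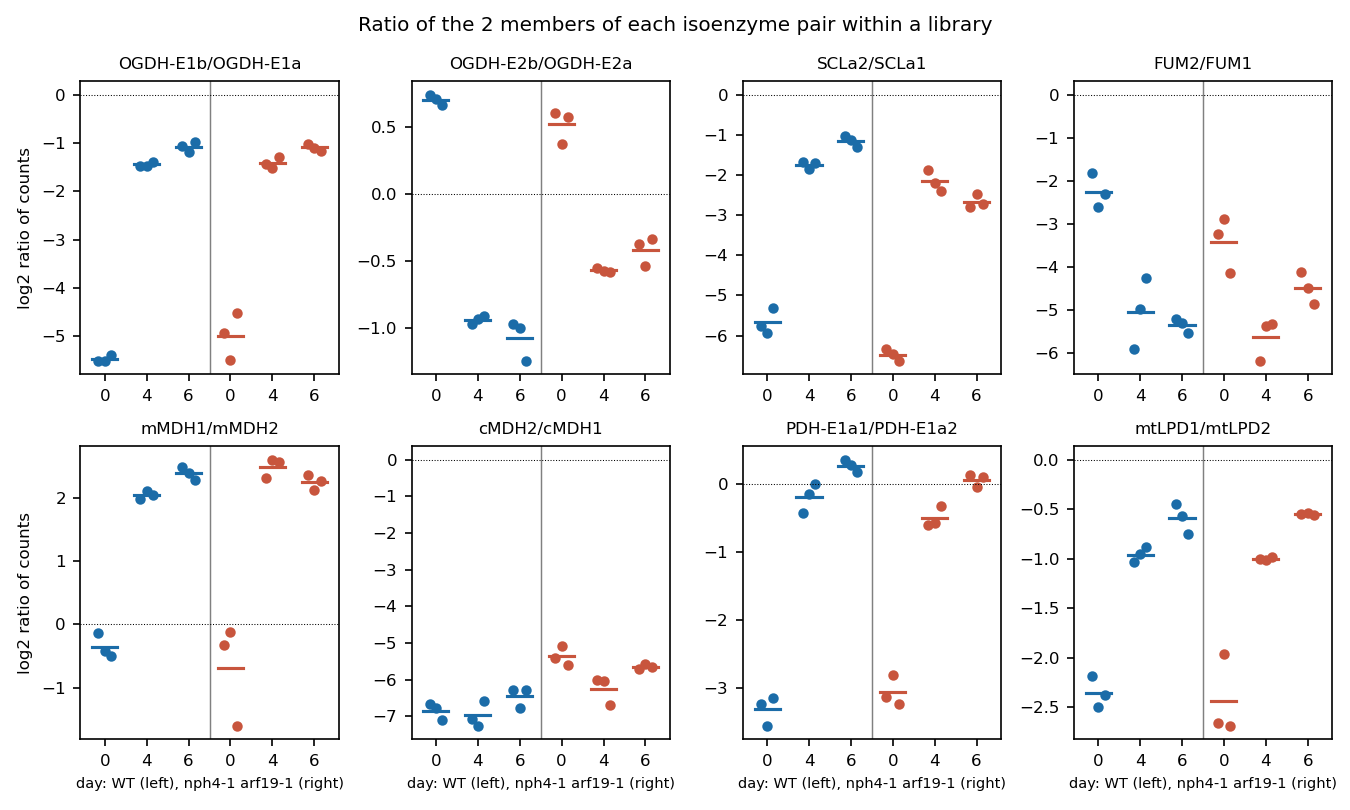
Log2 ratio of the counts of 2 genes for the same enzyme in each library, 1 panel a pair, with WT in blue on the left and nph4-1 arf19-1 in red on the right by day, points for libraries and lines for group means (n = 3). In 5 panels (OGDH-E1, SCL alpha, mitochondrial MDH, PDH E1 alpha and mtLPD) every cultured library lies above every fresh one, and in the OGDH-E2 and FUM panels the ratios fall.

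Across the 8 pairs the culture change was called in 7, all but cMDH. As the ratios are written here, 5 rose and those of OGDH-E2 and FUM fell. The direction depends on which gene of a pair comes first. A difference between WT and mutant libraries was called in 4 pairs (OGDH-E2, SCL alpha, cMDH and PDH E1 alpha) over Days 4 and 6. The mutant libraries of Day 6 in these tests carry the yucasin label, so genotype and yucasin cannot be told apart in that part. Under TMM scaling, the gene that rose was the minor one in fresh cells in 4 of the 5 rising pairs, and its partner fell. In mitochondrial MDH both genes rose. OGDH-E2a, the minor E2 gene of fresh cells, also gained share, from 35.6 ± 0.63% to 65.5 ± 2.35% per kb in the WT. In the mutant it went from 38.6 ± 2.07% to 54.7 ± 1.88%. FUM2, the minor fumarase gene, lost share, from 21.8 ± 4.82% to 3.07 ± 0.33% in the WT and from 11.3 ± 4.16% to 5.54 ± 1.36% in the mutant.

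Between the genotypes, fresh protoplasts differed in few members. At Day 0 only OGDH-E1b was called higher in nph4-1 arf19-1 (0.80 ± 0.17) and FUM2 and PDH-E2a lower (-1.02 ± 0.24 and -0.81 ± 0.16), 1 and 2 of 28 against 6.4% higher and 1.84% lower over all variants. These counts rest on single libraries: with each fresh library left out in turn the higher calls ran from 0 to 2, being 0 without WT replicate 1, WT replicate 3 or mutant replicate 3 and 2 without WT replicate 2, and the lower calls from 1 to 2, being 2 without mutant replicate 2 and 1 without each of the other 5. At Day 4 CSY4, ACO1, IDH2 and OGDH-E2b were called higher, by 0.40 to 0.45 on the log2 scale, and none lower, against 14.8% and 13% over all variants. With edgeR at an unadjusted p under 0.05, 3 members were lower at Day 4, and DESeq2 called 4 higher and 0 lower. Without WT replicate 2 or mutant replicate 3 the count of higher members at Day 4 was 0, without WT replicate 3 it was 1 and without mutant replicate 1 it was 2.

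At Day 6 the members stood higher in nph4-1 arf19-1. Of 28 tested, 22 were called higher and 1 lower, against 24% and 23.4% over all variants, and the median log2 fold change was 0.60 against -0.04 over all variants. In 26 members the lowest mutant library exceeded the highest WT one, against 32.5% of all variants, and in SCLa2 every mutant library was below. With each Day 6 library left out in turn the higher calls ran from 18 to 22. None passed the limits of the study at Day 6, against 10.1% of all variants, so the differences were many and modest, from 0.36 to 1.52 among those called higher. The scaling moved the count: with library totals alone the median of all variants was -0.43, that of the members 0.21, and 9 members were called higher, while 27 of 28 remained above the median of all variants under each of the 3 scalings. OGDH-E2a and mtLPD1, the 2 smallest called differences at 0.38 and 0.36, turned to -0.02 and -0.04 in that setting. When single Day 6 libraries were left out, 5 of the 22 lost their call in some fits with edgeR. OGDH-E1b and mtLPD1 did so without WT replicate 2 or 3 or mutant replicate 1 or 2 (FDR up to 0.030 and 0.061), OGDH-E2a without WT replicate 1 or 2 or mutant replicate 1 or 2 (FDR up to 0.026), mMDH1 without mutant replicate 1 (0.43, FDR 0.013) and mMDH2 without mutant replicate 2 (0.53, FDR 0.020).

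Each step from PDH to MDH had a member called higher at Day 6. FUM2 differed most (1.52 ± 0.33, 2.87-fold), from values of 3.12, 2.89 and 2.35 CPM in WT libraries and 10.4, 7.65 and 5.5 in mutant ones, which did not overlap. The part of reads shared with FUM1 in these low values was not tested. cMDH2 followed at 1.42 ± 0.19 and OGDH-E2b at 1.04 ± 0.10 (FDR 1.88e-06 and 4.47e-08). OGDH-E2b, IDH2, ACO1, CSY4 and PDH-E2b were higher by 1.87-fold to 2.06-fold. SCLa2 alone was lower (-0.73 ± 0.13, FDR 7.78e-05), while its partner SCLa1 was higher (0.76 ± 0.12). ACO3, cICDH, PDH-E2a, SCLb and mtLPD2 were not called, with values from 0.22 to 0.32. The summed mesophyll markers at Day 6 were 677 to 978 CPM in the WT and 310.3 to 661 in the mutant. Of these 6 markers 2 were called lower and 0 higher (all variants, 23.4% and 24%). CA1 stood the other way, at 7.45 ± 1.24 CPM in the mutant against 3.34 ± 0.58 in the WT (1.18 ± 0.37, not called). DESeq2 called 1 of the 6 higher and 2 lower. Of the 3 vascular markers SUC2 was lower in the mutant (mean 1.4 CPM against 25.9), while SCR (6.77 against 3.16) and AST56 (8.05 against 0.498) were higher there. The part of these markers in the genotype difference was not tested.

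**Figure D4:**
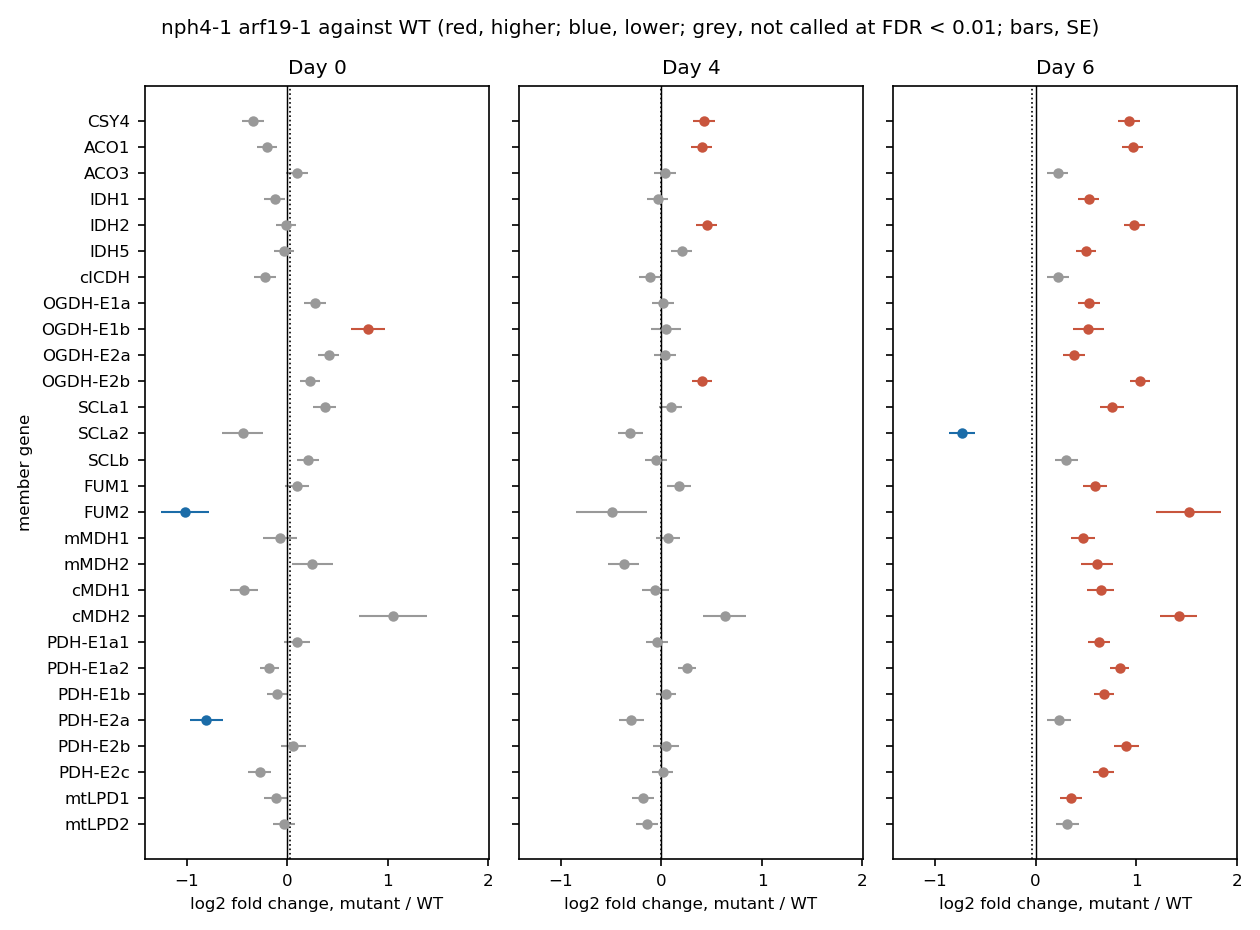
Log2 fold change of nph4-1 arf19-1 against WT for each tested member at Days 0, 4 and 6, with the called members in red (higher) or blue (lower), others in grey, bars for the SE and a dotted line for the median of all variants. The points lie around 0 at Days 0 and 4 and, apart from SCLa2, to the right of 0 at Day 6.

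The change from Day 0 itself was compared between the genotypes. The mutant's log2 fold change less that of the WT is positive where the mutant fell less or rose more. To Day 4 it was called positive for 2 members and negative for none, against 6.73% and 6.09% of all variants. The 2 were CSY4, at -1.01 ± 0.11 in WT and -0.25 ± 0.11 (not called) in mutant cells, and ACO1, at -0.92 ± 0.10 in WT and -0.31 ± 0.10 in mutant cells. Leaving out WT replicate 1 at Day 4 gave 3 positive, and the count was 1 without any of 7 other libraries (at Day 0 WT replicate 1 and mutant replicates 2 and 3, at Day 4 WT replicates 2 and 3 and mutant replicates 1 and 3). To Day 6 it was positive for 13 and negative for none, against 14.6% and 11.7%, with a median of 0.53 against -0.01. With edgeR at an unadjusted p under 0.05, 3 members had a negative difference to Day 4 and 0 to Day 6, and DESeq2 called none negative in either. The 13 were CSY4, ACO1, IDH1, IDH2, IDH5, OGDH-E2b, FUM2, cMDH1, PDH-E1a2, PDH-E1b, PDH-E2a, PDH-E2b and PDH-E2c, which includes 5 of the 8 PDH genes. IDH5 was the smallest of the 13 (0.53 ± 0.14) and lost its call in 7 of 12 fits, without Day 0 WT replicate 1 or 2, Day 0 mutant replicate 2, or replicate 1 or 2 of either genotype at Day 6 (edgeR, FDR up to 0.020, values over all 12 from 0.48 to 0.64). FUM2 differed most (2.54 ± 0.41) and was the only one past the limits of the study, and the part of reads shared with FUM1 in this value was not tested. For 9 of the 13 (CSY4, ACO1, IDH2, IDH5, OGDH-E2b, FUM2, PDH-E1a2, PDH-E1b and PDH-E2b) the WT value at Day 6 was a fall of 1.02 or more on the log2 scale, although those of PDH-E1b and PDH-E2b turned to 0.15 and 0.12 with library totals alone. In the mutant 5 of these 9 (IDH2, IDH5, OGDH-E2b, FUM2 and PDH-E1a2) were called lower, from -1.64 to -0.46. The other 4 were not called, at -0.01 ± 0.11 for CSY4, -0.19 ± 0.10 for ACO1, -0.23 ± 0.10 for PDH-E1b and -0.20 ± 0.13 for PDH-E2b. The difference between the genotypes at Day 6 less that at Day 4 was itself positive for 11 members and negative for none, against 8.73% and 3.34%, a comparison chosen after the data were seen. The mutant libraries carry the yucasin label at Day 6 and not at Day 4. Genotype and yucasin therefore cannot be told apart in this comparison, nor in the change to Day 6. With library totals alone none of these 11 was called, and leaving out single libraries gave 4 to 11, with 4 without Day 4 mutant replicate 2 or Day 6 mutant replicate 1, 5 without Day 4 mutant replicate 1 and 7 without Day 6 WT replicate 3.

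Genes of neighbouring steps were read from lists by locus. Of 10 tested genes for subunits of succinate dehydrogenase, the step between SCL and fumarase, 5 were higher and 3 lower in the WT at Day 6 than at Day 0 (all variants, 43.9% and 37.7%), and 9 were higher and none lower in nph4-1 arf19-1 than in the WT at Day 6 (median 0.88, all variants, 24% and 23.4%). With library totals alone all 10 were higher in WT culture, so that SDH1-1, called lower under TMM, stood at 0.53. The median of all variants was then 1.40 and that of the 10 genes 1.47, so this count is no result about them. In that setting 5 of the 10 were higher in the mutant (median 0.48, all variants -0.43), with SDH2-1 at -0.02. SDH3-1 and SDH3-2, near-identical genes, had the same difference of 1.08 and may share reads, so the 9 may count 1 signal 2 times. SDH8 (AT2G46390) was highest in that comparison (1.33 ± 0.14) and SDH2-1 (AT3G27380) lowest of those called (0.38 ± 0.09). SDH7 (AT5G62575) rose most in WT culture (2.89 ± 0.32) and SDH1-1 (AT5G66760) fell most (-0.64 ± 0.10). The plastid PDH complex, which supplies acetyl-CoA for fatty acid synthesis, stood the other way. All 7 of its genes were lower in nph4-1 arf19-1 than in the WT at Day 6 (median -1.12, with 23.4% of all variants lower), from -1.43 ± 0.14 for LPD1 (AT3G16950) to -0.54 ± 0.14 for the E1 beta gene AT1G30120, whereas 6 of the 8 mitochondrial PDH members were higher and none lower (all variants, 24% and 23.4%), of which mtLPD1 turned to -0.04 with library totals alone. The 7 plastid genes were lower under each of the 3 scalings (median -1.52 with library totals alone and -1.14 with DESeq2). In WT culture 6 of the 7 plastid genes were higher at Day 6 (all variants, 43.9%), most of all LTA2 (AT3G25860, 4.13 ± 0.28) and least of those called AT4G16155 (1.23 ± 0.16).

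**Figure D5:**
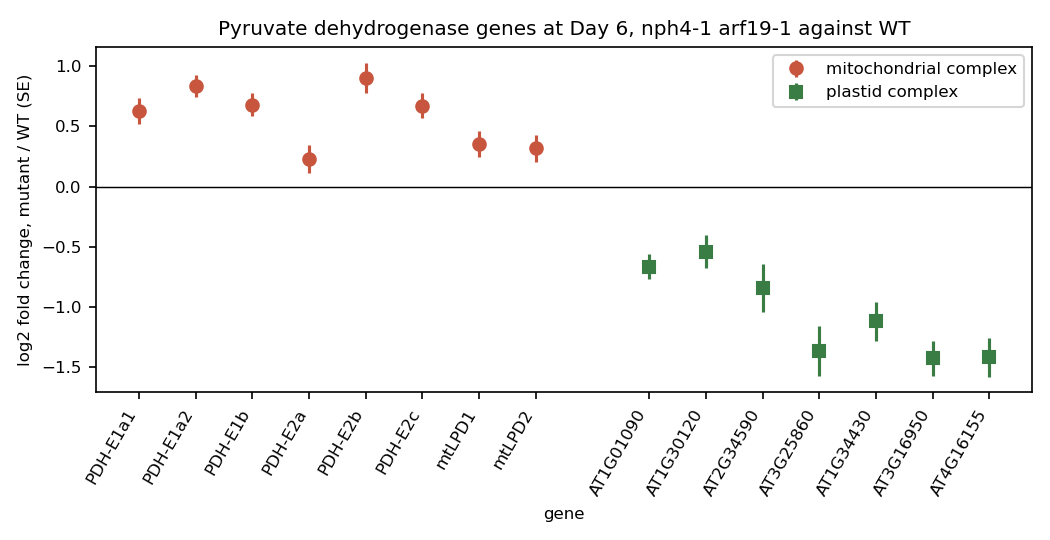
Log2 fold change of nph4-1 arf19-1 against WT at Day 6 for the 8 genes of the mitochondrial PDH complex (circles) and the 7 of the plastid complex (squares), with bars for the SE. All circles lie above 0, 6 of them called, and all squares lie below 0 and were called.

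Among 5 tested genes for peroxisomal citrate synthases and malate dehydrogenases, 2 were higher and 3 lower in WT culture (all variants, 43.9% and 37.7%). At Day 6, 4 of them were higher in the mutant under each of the 3 scalings (all variants, 24% under TMM). The glyoxylate enzyme genes ICL (AT3G21720) and MLS (AT5G03860) had group means of at most 0.92 CPM and were not tested. PMDH2 (AT5G09660), a peroxisomal MDH of photorespiration, fell most in the WT (-4.22 ± 0.29) and was the most raised in the mutant (2.01 ± 0.29), while PMDH1 (AT2G22780) rose most in the WT (1.26 ± 0.10) and CSY2 (AT3G58750) had the smallest called difference between the genotypes (0.76 ± 0.11). Of 5 other isocitrate and malate dehydrogenase genes, 3 were higher and 2 lower in WT culture (against the same 43.9% and 37.7%), led by AT5G14590 (3.90 ± 0.16) and IDH-VI (AT3G09810, -1.92 ± 0.12), and 2 were higher in the mutant under each scaling (against the same 24%), ICDH (AT1G54340, 1.14 ± 0.10) and IDH-VI (0.95 ± 0.12). FUM2 and PMDH2 thus fell in WT culture and were higher in the mutant than in the WT at Day 6.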

How the data were processed

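RNA was sequenced from 18 libraries of leaf mesophyll protoplasts, 3 for each of 2 genotypes at Days 0, 4 and 6. The authors mapped single-end reads from a stranded mRNA kit with Bowtie 0.12.9 to the TAIR10 genome. Raw counts per splice variant were deposited with the total of mapped reads. The paper reports the share of reads that mapped uniquely and does not describe how reads matching more than 1 gene were counted. How strand entered the counting is not given in the sources used here. The deposited counts summed to 1.45 to 1.51 times those totals.

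Groups came from the sample labels. Counts of 25202 variants that passed filterByExpr (minimum count 10, minimum total 15) were fitted with edgeR 4.0.16 (R 4.3.3, limma 3.58.1) in 1 quasi-likelihood model of 6 group means, with the authors' totals and TMM, Benjamini-Hochberg adjustment over all variants and a limit of FDR < 0.01. TMM factors were 0.56 to 0.68 at Day 0 and 1.09 to 1.50 in culture. The methods of the study call the 3 libraries of a group biological replicates, and p-values measure the spread between them. Ratios within 8 pairs, log2 of counts plus 0.5, were tested by permutation with a limit of 0.05. Python 3.11.15, numpy 2.4.6, pandas 2.3.3 and matplotlib 3.10.9 served for ratios, sequences and figures.

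The members and lists were chosen with earlier results of these data known, and 1 gene that the choice by enzyme name also holds is not reported here and enters no count of members. All 31 members were named by locus, with values in every library for members of pairs that passed a ratio test and for the 3 highest and 3 lowest called members in the WT at Day 6 and between genotypes at Day 6. Of each other list the highest and lowest called gene in those comparisons was named. Each comparison was also run on simulated counts. For WT Day 6 against Day 0 (24588 variants), 70% of 2-fold and 98% of 4-fold changes were recovered, with 0 false calls. Differences between the genotypes in their changes were recovered less often. To Day 6 the figures were 21% of 2-fold and 88% of 4-fold (2 false calls), and to Day 4 35% and 89% (5). For Day 6 less Day 4 they were 24% and 82% (1). Each run changed 100 variants at each size, far fewer than moved in culture, so the scaling was not tested. Alternatives were library totals alone, DESeq2 1.42.0, other filters, 1 variant a gene, a replicate block, only the compared libraries, other limits and leaving out each library.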

Additional observations from a re-analysis of the deposited data

Results flagged for a closer look

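The change from Day 0 differed between nph4-1 arf19-1 and the WT by a test of the difference itself (the interaction term of the edgeR model, FDR < 0.01) for the following members, given as the mutant's log2 fold change less that of the WT. To Day 4 the difference was 0.76 for CSY4 and 0.60 for ACO1. To Day 6 it was 2.54 for FUM2, 1.27 for CSY4, 1.17 for ACO1, 1.08 for cMDH1, 1.04 for PDH-E2a, 1.02 for PDH-E1a2, 0.99 for IDH2, 0.95 for PDH-E2c, 0.85 for PDH-E2b, 0.82 for OGDH-E2b, 0.78 for PDH-E1b, 0.65 for IDH1 and 0.53 for IDH5. The call of ACO1 to Day 4 was lost in 7 of 12 fits that left out 1 library, without Day 0 WT replicate 1, Day 0 mutant replicate 2 or 3, Day 4 WT replicate 2 or 3 or Day 4 mutant replicate 1 or 3 (FDR up to 0.014), and that of IDH5 to Day 6 in 7 of 12, without Day 0 WT replicate 1 or 2, Day 0 mutant replicate 2, or replicate 1 or 2 of either genotype at Day 6 (FDR up to 0.020). All 15 differences were positive, and both genotypes enter them with their own Day 0 libraries. In those to Day 6 genotype and the yucasin label of the mutant libraries cannot be told apart.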

How the results depend on the processing

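Directions in the comparisons with Day 0 depended on scaling, and the cause was not tested. With library totals alone, members called higher and lower numbered 19 and 5 for the WT on Day 4 (median log2 fold change 1.06, all variants 1.26) and 16 and 7 on Day 6 (0.78, all variants 1.40). For the mutant they numbered 22 and 5 on Day 4 (1.09, all variants 1.19) and 20 and 4 on Day 6 (0.96, all variants 1.10). Genotype calls were 1 higher with 4 lower in fresh cells (-0.16, all variants -0.08), 0 with 1 on Day 4 (-0.11, all variants -0.15) and 9 with 1 on Day 6 (0.21, all variants -0.43). The change to Day 6 had a median of 0.26 (all variants -0.28), and the Day 6 less Day 4 difference gave 0 higher (0.28, all variants -0.28). For the counts under alternative settings in this section the shares of all variants called are not given here. These counts show how the calls moved with the setting and are no result about the members.

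Directions that turned were, in the WT at Day 4, CSY4 0.014, ACO1 0.11, PDH-E1b 0.50 and mtLPD2 0.54, and at Day 6 IDH1 0.77, OGDH-E2a 0.59, FUM1 0.78, PDH-E1b 0.15, PDH-E2b 0.12 and mtLPD2 0.15. In the mutant at Day 4 they were ACO1 0.70, IDH2 0.13, OGDH-E2a 0.66, PDH-E1a2 0.27, PDH-E1b 0.64, PDH-E2b 0.64 and mtLPD2 0.43, and at Day 6 IDH2 0.19, OGDH-E2a 0.30, PDH-E1a2 0.44 and mtLPD2 0.24. Between genotypes at Day 6 they were OGDH-E2a -0.016 and mtLPD1 -0.042.

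With only the compared libraries, the WT Day 4 median was 0.17, Day 0 between genotypes gave 0 higher and 1 lower, and the change to Day 4 gave 1 higher. DESeq2 called 2 higher at Day 0 and reversed no member. At FDR < 0.05, edgeR called 4 higher and 4 lower at Day 0, 6 higher at Day 4, 4 and 1 for the change to Day 4 and 18 for Day 6 less Day 4. With the limits of the study the higher and lower calls were 4 and 1 (WT Day 4), 4 and 4 (WT Day 6), 3 and 2 (mutant Day 4), 6 and 1 (mutant Day 6), 0 and 0 between genotypes on each day, 0 for the change to Day 4, 1 for that to Day 6 and 1 for Day 6 less Day 4. For pairs, cMDH2 to cMDH1 in culture was -0.070 with 2 added to counts, and mtLPD1 to mtLPD2 between genotypes was 0.014 with variants summed.

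Leaving out 1 library gave medians of -0.43 to -0.27 (WT Day 6), 0.022 to 0.18 (mutant Day 4) and 0.021 to 0.18 (mutant Day 6), 0 to 2 higher and 1 to 2 lower at Day 0, 0 to 4 higher at Day 4, 1 to 3 higher and 0 to 1 lower for the change to Day 4, and 4 to 11 for Day 6 less Day 4. Pair differences were -0.0026 to 0.14 (cMDH, culture), -0.021 to 0.033 (OGDH-E1, genotype), -0.070 to 0.34 (FUM, genotype), -0.32 to -0.21 (PDH-E1a, genotype) and -0.042 to 0.032 (mtLPD, genotype).

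Deviations of same-numbered libraries correlated with a median of 0.006 over 45 pairs (-0.12 to 0.29, 6 of them over 0.1). For libraries of different number the median was -0.00066 over 90 pairs (-0.30 to 0.18, 9 of them over 0.1). Of 18 libraries, 8 correlated best with their own number. Whether same-numbered libraries share a preparation was not tested. With the replicate block the counts stayed as they were but for lower calls in the mutant at Day 4 (10) and Day 6 less Day 4 (9). Depth limits FUM2 and cMDH2, the members with the fewest reads.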

Other observations

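Genes that feed the cycle were read from 2 further lists. Of 9 tested genes for phosphoenolpyruvate carboxylase, NAD-malic enzyme, mitochondrial pyruvate carriers and PDH kinase, 4 were higher and 3 lower in the WT at Day 6 than at Day 0 (all variants, 43.9% and 37.7%), and 3 were higher and 2 lower in nph4-1 arf19-1 than in the WT at Day 6 (all variants, 24% and 23.4%) with edgeR at FDR < 0.01. With library totals alone 7 were called higher in WT culture (median 1.42, all variants 1.40) and PDK (AT3G06483) stood at -0.23 without a call. Between the genotypes 3 were then higher and 4 lower (median -0.25, all variants -0.43), while DESeq2 gave 4 and 3 in WT culture, and 3 and 2 between the genotypes. PPC3 (AT3G14940), a phosphoenolpyruvate carboxylase that refills oxaloacetate, stood at 0.20 ± 0.20 CPM in fresh WT cells, under the floor of 3 reads, at 160.1 ± 21.2 at Day 6 in the WT and at 33.4 ± 1.77 in the mutant, whose difference from the WT was -2.26 ± 0.16 on the log2 scale. PDK, the kinase that inactivates PDH, fell most in WT culture (-1.40 ± 0.12). The pyruvate carrier gene AT4G05590 differed most in the other direction between the genotypes (1.80 ± 0.21).

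Of 5 genes for ATP citrate lyase, which makes cytosolic acetyl-CoA from exported citrate, 2 were higher and 1 lower in WT culture (all variants, 43.9% and 37.7%). With library totals alone 4 were higher and 1 lower (median 1.24, all variants 1.40). ACLA-3 (AT1G09430) fell by 2.61 on the log2 scale in the WT and was higher in the mutant at Day 6 (1.47 ± 0.10). ACLA-2 (AT1G60810) rose in WT culture (3.40 ± 0.48) from at most a few reads per library, and ACLB-2 (AT5G49460) was lower in the mutant at Day 6 (-1.16 ± 0.11).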
